A study of Danio rerio with 7 samples.

Results

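The lens crystallin genes of the zebrafish were followed in RNA of whole larvae. They were taken as every reference gene whose symbol begins with cryaa, cryab, cryba, crybb, crygm, crygn or crygs. This gave 57 of the 32520 reference genes, and the 29567 genes of the deposited all-gene tables held the same 57. They comprise 3 alpha crystallins, 13 beta crystallins, 35 gamma M crystallins, 2 gamma N crystallins and 4 gamma S crystallins, and 47 of the 57 passed the filter on low values described with the tests.

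Crystallins are the most abundant soluble proteins of the vertebrate lens, where fibre cells pack them at high concentration to refract light. Alpha crystallins belong to the small heat shock proteins and act as chaperones, whereas beta and gamma crystallins are structural proteins that share the Greek key fold. The gamma M class is a methionine-rich group of the fish lens, gamma N crystallins share features of the beta and gamma classes, and gamma S crystallin is a lens protein known in mammals as well.

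All larvae were of a transgenic line labelled as CD36 overexpression (Cd36 is a scavenger receptor that takes up fatty acids), and all were sampled at 15 days after fertilization. The normal-diet group (12% diet) had 3 libraries, named fish 1, fish 2 and fish 4. The high-fat group (24% diet) and the group given the high-fat diet and then CACF at 40 µg/ml each had 2, named fish 2 and fish 4. CACF is an agent that the labels do not explain, and the groups without it also spent the night before sampling in the same buffer. The series has no larvae without the transgene, so every group carries it. The promoter that drives the transgene, the number of founder lines and whether 1 library held 1 larva or several are not given in the sources used here. Accordingly, p-values cover only variation among the libraries of a group.

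The deposited normalized counts correspond to library totals of 12699552 to 22543693 reads. The median correlation of a library with the other libraries, across genes, was 0.876 for normal-diet fish 1 and 0.875 for CACF fish 2, against 0.940 to 0.946 for the other 5. Normal-diet fish 1 is shown separately throughout, because its crystallin values stood apart from those of every other library. As whole larvae were sequenced, fewer lens cells and less crystallin RNA per lens cell cannot be told apart. RNA of both the lens and the retina was present, since the lens fibre gene bfsp2 had 1.13 to 308 TPM and the rod opsin gene rho had 499 to 1120 TPM over the 7 libraries.

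The genome positions of the crystallin genes in the deposited files are on build GRCz11, and 36 of the 57 lie on chromosome 9. Of these, 34 lie within chr9:21993092-22366295. This cluster holds the 21 crygm2d genes, which span chr9:22091161-22339582 and resemble one another closely. The symbol crygm2d17 is given to 2 gene IDs, ENSDARG00000069817 and ENSDARG00000109861. The genes crygm2d14 and crygm2d16 share 1044 bases on the same strand. On opposite strands, cryba1a and crybb1l3 share 8252 bases of chromosome 15, and crygs3 and crygm3 share 7401 bases of chromosome 9. The sources used here do not give whether the counting used strand or how reads that match several near-identical copies were assigned. Values of single crygm2d genes and of the overlapping pairs are therefore uncertain.

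Summed over the 57 genes, crystallin RNA held 107524 TPM in normal-diet fish 1 and 796 to 2747 TPM in the other 6 libraries. TPM is a level scaled for transcript length and library size and is used here as the authors deposited it. The sums were 1354 TPM in normal-diet fish 2 and 2286 TPM in normal-diet fish 4. With fish 1 the normal-diet libraries differed most among themselves. Between fish 2 and fish 4 the high-fat libraries differed most, by 3.45 times. High-fat fish 2 held 796 TPM and high-fat fish 4 held 2747 TPM. CACF fish 2 held 1286 TPM and CACF fish 4 held 1728 TPM. Normal-diet fish 1 therefore stood 69.8 times above the median of the other 6 sums and 39.1 times above the highest of them. In reads, crystallins took 8.37% of the library of normal-diet fish 1, which is 1885796 reads. In the other 6 libraries they took 0.0806% to 0.227%. Apart from fish 1 the groups overlapped, since the lowest and the highest of the other 6 sums were both from the high-fat diet.

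**Figure D1:**
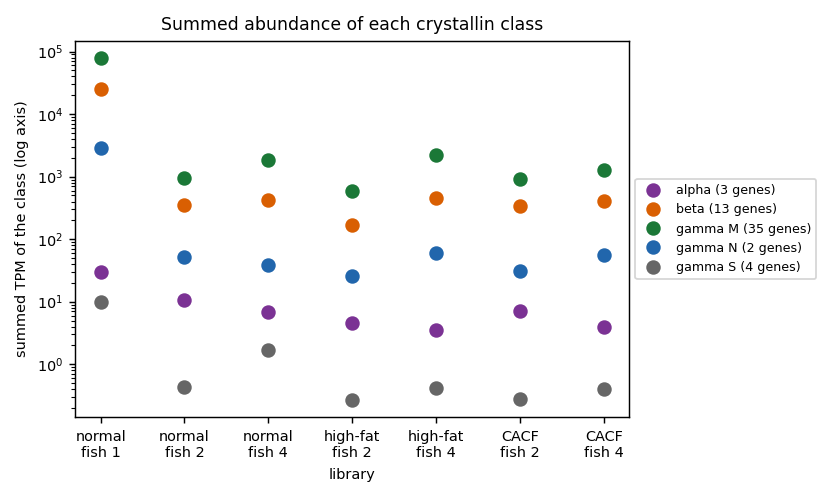
Summed TPM of the alpha, beta, gamma M, gamma N and gamma S crystallins in each of the 7 libraries, on a log axis, with 1 point per library. Normal-diet fish 1 lies above all other libraries in every class, by 2.82 times the highest of them for alpha crystallins and by 56.0 times for beta crystallins.

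The gamma M class made up most of crystallin RNA in every library, from 69.5% of summed crystallin TPM in normal-diet fish 2 to 81.3% in high-fat fish 4, with 73.9% in normal-diet fish 1. Beta crystallins made up 16.4% to 26.1%. Alpha crystallins made up 0.128% to 0.784% in the 6 libraries other than normal-diet fish 1 and 0.0278% in that library. Thus the shares of the gamma M and beta classes in normal-diet fish 1 fell within the range of the other libraries, and the share of the alpha class fell below it.

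Among the alpha crystallins, cryaa (ENSDARG00000053502, chr1:29096881-29100923), which encodes the alphaA chaperone of the lens, was the most abundant. Its level was 28.9 TPM in normal-diet fish 1, 9.80 in normal-diet fish 2 and 5.91 in normal-diet fish 4. It was 4.05 and 2.81 TPM in high-fat fish 2 and fish 4, and 6.80 and 2.87 TPM in CACF fish 2 and fish 4. Normal-diet fish 1 was the highest library, at 5.82 times the median of the other 6, and both high-fat libraries lay below all 3 normal-diet libraries. The alphaB genes cryaba and cryabb, whose mammalian counterpart is also active outside the lens, stayed low in all 7 libraries. Levels of cryaba ran from 0.228 to 0.829 TPM with 0.800 in normal-diet fish 1, and those of cryabb from 0.0398 to 0.384 TPM with 0.199 in normal-diet fish 1. Neither alphaB gene was highest in normal-diet fish 1 in TPM. In normalized counts cryaba was, at 22.8 against at most 18.6 in the other 6.

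The 13 beta crystallin genes divided by level in normal-diet fish 1. There 8 of them held 942 to 4945 TPM, cryba1a and cryba1l2 held 50.8 and 65.9 TPM, and crybb2, crybb1l3 and crybb3 held less than 5 TPM. The beta gene with the highest level in every group, crybb1 (ENSDARG00000068507, chr10:44021147-44027391), encodes a basic beta crystallin. It held 4945 TPM in normal-diet fish 1, 107 in normal-diet fish 2 and 117 in normal-diet fish 4. High-fat fish 2 and fish 4 held 60.2 and 129 TPM of it, and CACF fish 2 and fish 4 held 94.996 and 119 TPM. Normal-diet fish 1 was 44.2 times the median of the other 6, among which the groups overlapped.

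The acidic beta crystallin gene cryba2b (ENSDARG00000041925, chr9:11554089-11560432) lies on chromosome 9 outside the gamma cluster. Its level was 3462 TPM in normal-diet fish 1 and 11.3 to 23.5 TPM in the other 6 libraries, a ratio of 208 to their median and the highest ratio of the class. The acidic genes cryba1l1 and cryba1b and the basic gene crybb1l2 held 4364, 3041 and 3286 TPM in normal-diet fish 1. In the other 6 libraries cryba1l1 ran from 22.5 to 90.2 TPM, cryba1b from 23.8 to 56.5 TPM and crybb1l2 from 12.7 to 73.4 TPM. No other library came near normal-diet fish 1 for these genes, and in the other 6 the ranges of the groups overlapped for each of them. Against this, crybb3 (chosen after its values were seen) was lowest in normal-diet fish 1 in TPM, at 0.661 against 0.997 to 2.19 in the other 6. In normalized counts crybb3 was within the range of the other 6, at 19.3 against 17.6 to 34.6. The level of crybb1l3 was 1.51 TPM in normal-diet fish 1 and within the range of the other 6, which ran from 0.494 to 2.19 TPM.

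The gamma M genes gave the highest crystallin levels, and all 35 except crygm4 stood more than 10 times higher in normal-diet fish 1 than in any other library. The most abundant in normal-diet fish 1 was crygm2d13 (ENSDARG00000057460, chr9:22091161-22092089), at 7385 TPM. Normal-diet fish 2 and fish 4 held 42.6 and 70.0 TPM of it, high-fat fish 2 and fish 4 held 28.9 and 98.4 TPM, and CACF fish 2 and fish 4 held 55.8 and 66.3 TPM. The high-fat diet thus gave both the lowest and the highest of these 6 levels.

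For crygm2d10 (ENSDARG00000087765, chr9:22309838-22310919) normal-diet fish 1 held 6540 TPM, and normal-diet fish 2 and fish 4 held 120 and 192 TPM. High-fat fish 2 and fish 4 held 76.6 and 232 TPM, and CACF fish 2 and fish 4 held 107 and 115 TPM. In TPM both CACF libraries lay below all 3 normal-diet libraries. In normalized counts they did not, with 1320 and 1363 in CACF fish 2 and fish 4 against 1076 in normal-diet fish 2. The nearby gene crygm2d1 (ENSDARG00000087324, chr9:22338578-22339582) held 4894 TPM in normal-diet fish 1 and 98.6 and 187 TPM in normal-diet fish 2 and fish 4. Its levels were 56.9 and 239 TPM in high-fat fish 2 and fish 4, and 67.6 and 130 TPM in CACF fish 2 and fish 4. In each diet group fish 4 was above fish 2. The other crygm2d genes named by abundance, crygm2d2 and crygm2d21, held 5119 and 4552 TPM in normal-diet fish 1, against at most 154 and 83.7 TPM in the other 6 libraries.

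Other gamma M genes varied more in their ratio than the crygm2d genes. Over the 21 crygm2d genes normal-diet fish 1 was 42.4 to 123 times the median of the other 6. Among the other gamma M genes with a median above 0 the ratio ran from 2.46 for crygm4 to 760 for crygm7 (chosen after its values were seen), which held 373 TPM in normal-diet fish 1 and 0.0935 to 2.01 TPM in the other 6. No read of crygm6 was recovered outside normal-diet fish 1, which had 182. Against a floor of 3 reads per library, this is at least 41.8-fold higher. The level of crygm4, which lies on chromosome 6 apart from the cluster, was 2.57 TPM in normal-diet fish 1 and 3.43 TPM in high-fat fish 2. In the other 5 libraries it ran from 0.567 to 1.45 TPM. It was the only gamma M gene for which normal-diet fish 1 was not the highest library in TPM.

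Of the gamma N genes, crygn2 (ENSDARG00000030411, chr24:41305391-41312459) held 2667 TPM in normal-diet fish 1 and 25.3 to 59.7 TPM in the other 6 libraries. The level of crygn1 was 163 TPM in normal-diet fish 1, 10.2 in normal-diet fish 2 and 0.855 in normal-diet fish 4. It was 0.347 and 0.784 TPM in high-fat fish 2 and fish 4, and 0.543 and 7.10 TPM in CACF fish 2 and fish 4. The deposited normalized counts of crygn1 were 118 in normal-diet fish 2 and 111 in normal-diet fish 4, and the other 4 libraries apart from fish 1 held 44.6 to 105. The wide range of crygn1 in TPM among those 6 libraries was therefore not shared by its counts.

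Except for crygs4 in normal-diet fish 1, the 4 gamma S genes were near the limit of detection. The highest, crygs4, held 8.33 TPM in normal-diet fish 1 and 0 to 1.05 TPM in the other 6 libraries. The levels of crygs1 and crygs2 were 0.753 and 0.589 TPM in normal-diet fish 1, and each was listed at 0 in at least 4 of the other 6. The level of crygs3, which overlaps crygs4, was 0.169 TPM in normal-diet fish 1 and at most 0.490 in the others.

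**Figure D2:**
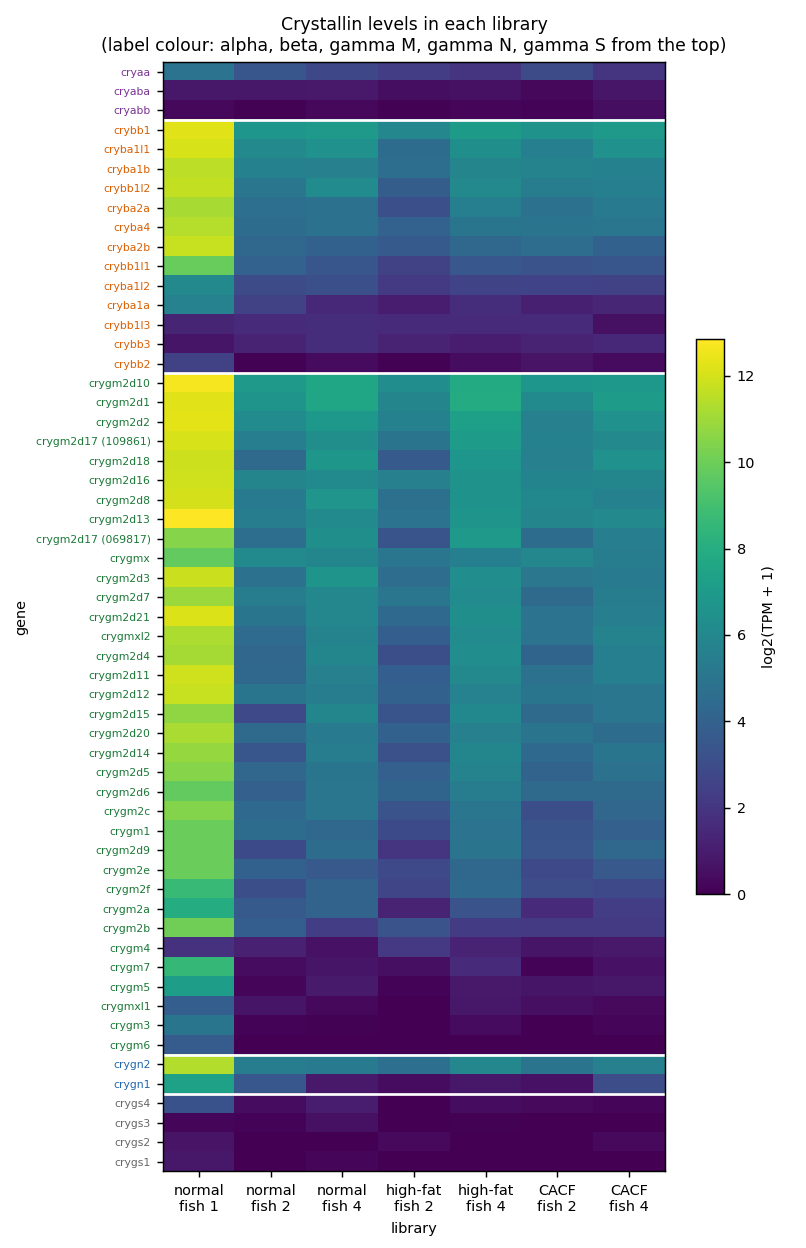
Heat map of log2(TPM + 1), given by colour, for the 57 crystallin genes (vertical axis, grouped by class) in each of the 7 libraries (horizontal axis). Normal-diet fish 1 stands apart for nearly all beta, gamma M and gamma N genes, while cryaba, cryabb, crybb3 and crybb1l3 show no such gap.

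Counted over the class, normal-diet fish 1 was the highest of the 7 libraries for 51 of the 57 genes in TPM and for 53 in normalized counts. Among genes tested, it was the highest in TPM for 44 of the 47 crystallins, against 8.86% of all genes. It was more than 10 times the highest other library for 45 of the 57 in TPM. Among the 18169 genes tested, this held for 41 of the 47 crystallins and for 77 genes in all, or 0.424% of genes. Crystallins were 53.2% of those 77. The median ratio of normal-diet fish 1 to the median of the other 6 was 63.8 over the crystallin genes with a median above 0, and the range was 0.462 to 760. With 1 library set against the rest there is no test of this difference.

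**Figure D3:**
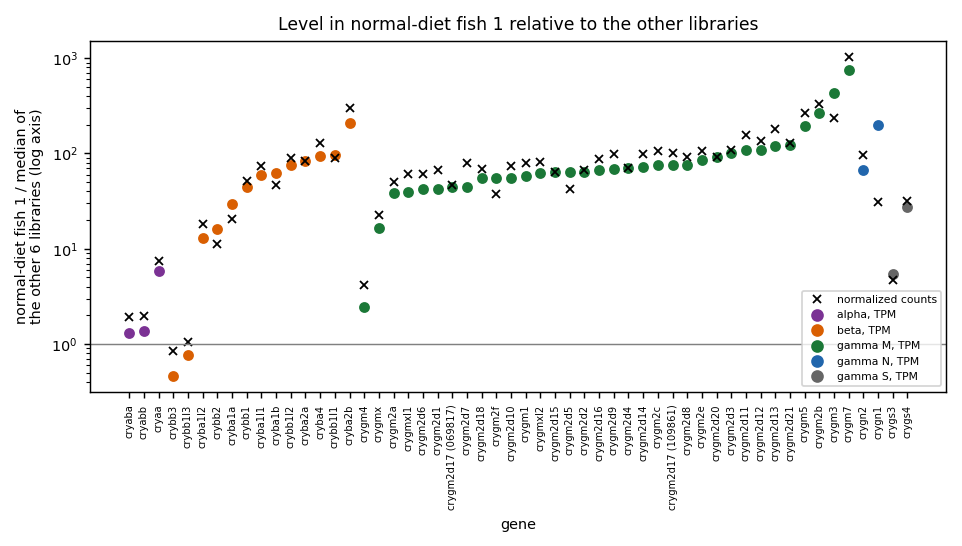
Ratio of TPM in normal-diet fish 1 to the median of the other 6 libraries for each crystallin gene whose median is above 0, on a log axis. Points give TPM, coloured by class, and crosses give normalized counts; ratios in TPM run from 0.462 for crybb3 to 760 for crygm7, and the 21 crygm2d genes fall between 42.4 and 123.

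Ranked by the log2 ratio of TPM plus 1 in normal-diet fish 1 to the highest of the other 6, 35 of the first 50 genes were crystallins, out of 7460 genes with at least 5 TPM in that library. The non-members most like them in this measure included crybgx, a gene of the beta/gamma crystallin superfamily outside the symbols used here, with 2184 TPM against 3.25 to 15.4 TPM. They also included the beaded filament genes bfsp2 and BFSP1, which build the cytoskeleton of lens fibres, and dnase1l1l, which encodes a DNase of the lens. The level of bfsp2 was 308 TPM against at most 5.12, that of BFSP1 41.2 against at most 0.378, and that of dnase1l1l 30.7 against at most 0.310. The others named by this rule were hsp70l, hsp70.1 and hsp70.2, which encode inducible chaperones, pck1, which encodes a gluconeogenic enzyme, the cytochrome P450 gene cyp3c3 and ifit14, an interferon-induced gene.

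Lists of other eye and stress genes were set beside the crystallins. A list of 21 lens fibre genes for membrane, cytoskeleton and organelle loss summed to 981 TPM in normal-diet fish 1 and to 35.6 to 63.5 TPM in the other 6 libraries. Of the 21, normal-diet fish 1 was highest for 16 and more than 10 times the next library for 9, among them lim2.4, a fibre membrane protein gene, at 151 TPM against 0.701 to 5.93. The aquaporin gene mipb reached 16.7 TPM against at most 10.3. The lens connexin genes gja3, gja8a and gja8b were at or under 0.294 TPM in normal-diet fish 1 and at or under 0.794 TPM in every library. The connexin gene cx23 was highest in normal-diet fish 1, at 2.34 TPM against at most 0.961. Of 17 lens transcription factor genes found, normal-diet fish 1 was highest for 2, one of which was hsf4 (4.78 TPM against at most 0.229), a heat shock factor gene of the lens. The sum over the 17 genes was 145 TPM in normal-diet fish 1, below the 271 to 414 TPM of the other 6. That sum was weighted to the genes of highest level, pax6a, six3b and sox2 first, and does not stand for every gene. Besides hsf4, mafbb was highest in normal-diet fish 1. The genes foxe3, mafga, mafgb and six6b were within the range of the other 6, and the rest were lowest in normal-diet fish 1. Which tissue of the larva these RNAs came from was not tested. The lens and eye factor gene pax6a was at 42.3 TPM against 62.2 to 145.

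The 31 photoreceptor genes summed to 4602 TPM in normal-diet fish 1, within the 2227 to 7216 TPM of the other 6. The 17 other retina and pigment epithelium genes summed to 889 TPM there, within 786 to 1309 TPM. Among the libraries without CACF, normal-diet fish 1 was lowest in both sums. The others without CACF held at least 5509 and 915 TPM, and the CACF libraries at most 3701 and 830 TPM. Normal-diet fish 1 was more than 10 times the next library for none of these eye genes. The 9 small heat shock genes other than alpha crystallins summed to 336 TPM in normal-diet fish 1 against 31.7 to 63.4 TPM. That sum was weighted to hspb9 and hspb11, at 206 and 62.6 TPM in normal-diet fish 1. This library was highest for 6 of the 9, and hspb2, hspb3 and hspb15 were within the range of the others. The gene hspb1 is in this list and in the next. The 34 immediate early and heat shock genes summed to 4331 TPM against 263 to 2115 TPM. The highest of the other 6 was CACF fish 2, whose crystallin sum lay within the range of the others. The genes of this list did not move as one in CACF fish 2. The immediate early gene junbb held 332 TPM there against 514 TPM in normal-diet fish 1. The heat shock gene hsp70l held 11.8 TPM there against 544 TPM in normal-diet fish 1. The part of these other genes in the crystallin level was not tested.

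**Figure D4:**
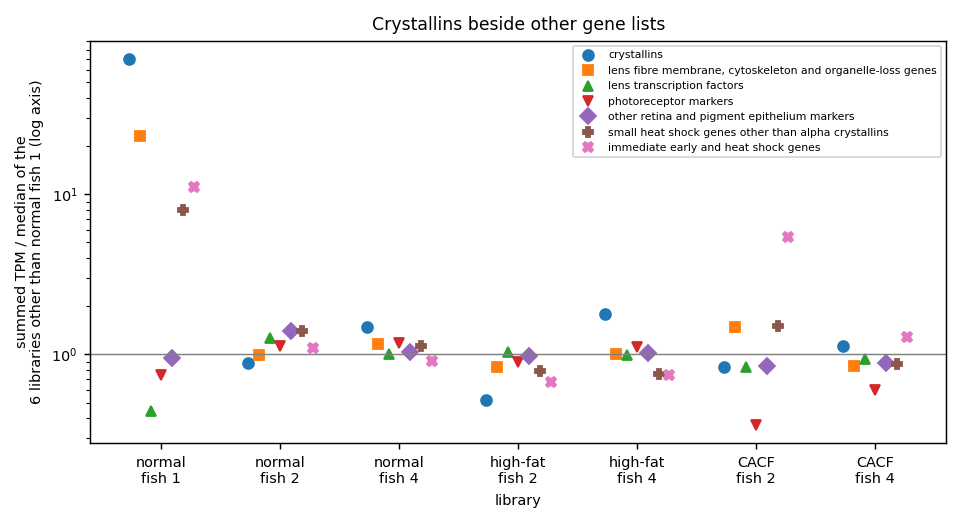
Summed TPM of the crystallins and of each list of other genes in the 7 libraries, divided by the median of the 6 libraries other than normal-diet fish 1, on a log axis. Normal-diet fish 1 is highest for the sums of the crystallins, the other lens fibre genes and both stress lists. It is lowest for the summed lens transcription factor list, which is weighted to pax6a and other genes of high level. For photoreceptor and other retina genes it is below every other library without CACF and above both CACF libraries.

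Among the 6 libraries other than normal-diet fish 1, the crystallin sum was higher in fish 4 than in fish 2 of every group. The sum in fish 4 over that in fish 2 was 1.69 on the normal diet, 3.45 on the high-fat diet and 1.34 with CACF. For the summed crygm2d genes these ratios were 2.11, 3.90 and 1.41, whereas for the beta class they were 1.21, 2.70 and 1.21. The alpha class sum went the other way in every group, at 0.654, 0.785 and 0.556. That sum is mostly cryaa. The other 2 alpha genes, cryaba and cryabb, were at low levels and were higher in fish 4 than in fish 2 of every group. Gamma N genes gave 0.722, 2.36 and 1.79, and the low gamma S genes 3.91, 1.59 and 1.45. Fish 4 was above fish 2 in all 3 groups for 31 of the 57 genes in TPM and for 36 in counts. Of the 47 tested, 27 (57.4%) showed this, against 14.6% of all tested genes. Of the 21 crygm2d genes, all of them tested, 18 did. As close copies with uncertain read assignment, these are not separate observations, so the 2 shares are not alike in kind. The labels do not say that a fish number marks a shared animal, litter or day across the groups. High-fat fish 2 was the lowest of the 6, or tied for lowest at 0, for 42 of the 57 genes. High-fat fish 4 was the highest, or tied at 0, for 31, and the high-fat sums bracketed the others. These ranks were not counted over all genes.

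The study used the normal diet as the control for the high-fat diet and for the high-fat diet with CACF. Tests were run with limma on log2(TPM + 1) over all 18169 genes that reached 1 TPM in 2 or more libraries, with Benjamini-Hochberg adjustment at 0.05. The 10 crystallins not tested were cryaba, cryabb, crybb2, crygm3, crygm5, crygm6, crygmxl1, crygs1, crygs2 and crygs3. The 2 comparisons with the normal diet share its libraries, and so share normal-diet fish 1.

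Between the high-fat and the normal diet, no crystallin passed the test. Of the 47 tested, 45 had lower fitted levels on the high-fat diet, as did 52.8% of all genes. The median log2 fold change of the 47 was -2.18 against -0.03 over all genes. This value rested on 1 library: without normal-diet fish 1, 39 were lower and 8 higher, and the median was -0.22 against -0.18 over all genes. In that fit 71.0% of all genes were lower too. The majority of lower crystallins did not hold in counts. Without normal-diet fish 1, limma on the normalized counts gave 25 lower and 26 higher (median 0.00017), and edgeR gave 21 lower and 30 higher (median 0.12), both added after seeing the data. Of all genes, 54.9% and 52.1% were lower in these fits. By limma 0 of the 47 were called, as were 0% of all genes, and 7 of the 47 had an unadjusted p under 0.05. All 7 were lower, as were 2.65% of all genes at that p, while 0.66% of all genes were higher. On the recovered reads edgeR called 0 of 51 crystallins (0% of all genes), and 24 of the 51 had an unadjusted p under 0.05, against 6.4% of all genes. These 24 also rested on normal-diet fish 1, since by edgeR without it 0 of the 51 had such a p. DESeq2 gave an adjusted p to only 15 of the 57 and called 0 of them (0% of all genes), and 4 of the 15 had an unadjusted p under 0.05, against 5.9% of all genes.

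The smallest p-values in this comparison belonged to crygm2a, cryaa and crygn1. The methionine-rich gamma gene crygm2a (ENSDARG00000057536, chr9:22075528-22076368) held 244, 11.3 and 16.0 TPM in normal-diet fish 1, fish 2 and fish 4, 1.41 and 8.80 TPM in high-fat fish 2 and fish 4, and 1.96 and 4.03 TPM in CACF fish 2 and fish 4. All 4 high-fat libraries, with or without CACF, lay below all 3 normal-diet libraries. Its log2 fold change on the high-fat diet was -2.94 ± 1.0002 (SE; limma adjusted p = 0.9996), or -1.58 if normal-diet fish 1 is left out. For cryaa it was -1.58 ± 0.56 (SE; limma adjusted p = 0.9996), or -0.98 if that library is left out. For crygn1 it was -3.28 ± 1.30 (SE; limma adjusted p = 0.9996), or -1.56 if it is left out. The latter value rests on the TPM of normal-diet fish 2. In normalized counts crygn1 was at 118 and 111 in normal-diet fish 2 and fish 4, and at 44.6 and 105 in high-fat fish 2 and fish 4. None of these log2 fold changes passed the adjusted threshold.

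In 7 of the 57 genes both high-fat libraries lay below all 3 normal-diet libraries in TPM: cryba1l2, crygs3, cryaba, cryaa, crygmx, crygm2a and crygn1. All of these but crygs3 did so in normalized counts too. Of the 47 tested, 5 (10.6%) were lower without overlap, against 12.1% of all tested genes, a share near the background, and 0 were higher, against 6.11%. Without normal-diet fish 1, 6 (12.8%) were lower, against 28.5% of all tested genes, and crygm4 alone was higher, against 7.36%.

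Between the high-fat diet with CACF and the normal diet, again no crystallin passed the test. Of the 47 tested, 46 had lower fitted levels with CACF, as did 36.2% of all genes. The median log2 fold change of the 47 was -2.13 against 0.19 over all genes. Median-of-ratios scaling moved the latter to 0.02 and the former to -2.35. Without normal-diet fish 1, 36 were lower and 11 higher, and the median was -0.21 against 0.02 over all genes. In that fit 47.8% of all genes were lower. Limma on the normalized counts without normal-diet fish 1 gave 40 lower and 11 higher (median -0.32). By edgeR without it 43 were lower and 8 higher (median -0.38), and both fits were added after seeing the data. Of all genes, 51.1% and 49.4% were lower in these fits, and 0 crystallins were called in either. By limma 0 of the 47 were called, against 0.0771% of all genes (14 of 18169), and 4 of the 47 had an unadjusted p under 0.05. All 4 were lower, as were 4.33% of all genes at that p, while 8.13% of all genes were higher. Without normal-diet fish 1 limma again called 0 of the 47, against 0.0275% of all genes. By edgeR 0 of 51 were called, against 0.0187% of all genes, and 40 of the 51 had an unadjusted p under 0.05, against 13.8%. These 40 rested on 1 library: by edgeR without normal-diet fish 1, added after seeing the data, 1 of the 51 had such a p. By DESeq2 0 of the 10 crystallins with an adjusted p were called, against 3.65% of all genes with one, and 6 of the 15 with a p had one under 0.05, against 11.9%.

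The smallest p-value was again that of crygm2a, with a log2 fold change of -3.27 ± 1.0002 (SE; limma adjusted p = 0.270), or -1.91 (adjusted p = 0.382) if normal-diet fish 1 is left out. The acidic beta crystallin gene cryba1a (ENSDARG00000041141, chr15:28086193-28107505), which overlaps crybb1l3, held 50.8, 4.62 and 1.84 TPM in normal-diet fish 1, fish 2 and fish 4. CACF fish 2 and fish 4 held 1.196 and 1.58 TPM of it, and high-fat fish 2 and fish 4 held 0.955 and 2.18 TPM. Both CACF libraries lay below all 3 normal-diet libraries, while the high-fat range overlapped them. Its log2 fold change with CACF was -1.98 ± 0.87 (SE; limma adjusted p = 0.379), or -0.75 if normal-diet fish 1 is left out.

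The gamma gene crygm2c held 1407, 19.8 and 32.2 TPM in normal-diet fish 1, fish 2 and fish 4, and 7.53 and 17.7 TPM in CACF fish 2 and fish 4. In high-fat fish 2 and fish 4 it held 8.80 and 32.4 TPM. Both CACF libraries lay below the normal-diet libraries. Its log2 fold change with CACF was -2.97 ± 1.31 (SE; limma adjusted p = 0.379), or -1.06 if normal-diet fish 1 is left out. In all, 12 of the 57 genes were lower with CACF than in every normal-diet library in TPM, and 9 of the 12 were so in counts. The 12 were the alpha gene cryaba, the beta genes crybb1l1, cryba1l2 and cryba1a, the gamma S genes crygs3 and crygs4, and the gamma M genes crygm1, crygm2a, crygm2b, crygm2c, crygm2f and crygm2d10. The 3 not lower without overlap in counts were crybb1l1, crygs4 and crygm2d10. Of the 47 tested, 10 (21.3%) were lower without overlap, against 8.72% of all tested genes, and 0 were higher, against 19.2%. Without normal-diet fish 1 the same comparison gave 10 lower, against 19.3% of all tested genes, and 1 higher, against 21.4%.

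Between the high-fat diet with and without CACF, which does not use the normal-diet libraries' means, 23 of the 47 crystallins had lower and 24 had higher fitted levels with CACF. Of all genes, 37.1% were lower. The median log2 fold change of the 47 was 0.04 against 0.16 over all genes. The split depended on the scaling: median-of-ratios scaling gave 31 lower and 16 higher (median -0.20 against -0.04 over all genes), and the normalized counts gave 35 lower and 16 higher (median -0.17 against -0.01). By edgeR 42 were lower and 9 higher (median -0.43), and by DESeq2 45 were lower and 10 higher (median -0.41). In the order named, these fits had 53.2%, 50.7%, 50.8% and 51.2% of all genes lower. The median by limma on TPM turned on the high-fat libraries. Without high-fat fish 2 it was -0.79, with 41 crystallins lower, and without high-fat fish 4 it was 0.71, with 42 higher. Of all genes, 39.2% and 35.6% were lower in these fits. By limma 0 of the 47 were called, against 0.0055% of all genes (1 of 18169), and 0 had an unadjusted p under 0.05, where 2.41% of all genes were lower and 11.4% higher. By edgeR 0 of 51 were called (0% of all genes) and 0 had an unadjusted p under 0.05, against 14.6% of all genes. By DESeq2 0 of the 11 crystallins with an adjusted p were called, against 4.81% of all genes with one, and 0 of the 15 with a p had one under 0.05, against 12.2%.

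The smallest p-value was that of crygm4, with a log2 fold change of -0.91 ± 0.45 (SE; limma adjusted p = 0.403). The high-fat libraries held 3.43 and 1.45 TPM of it and the CACF libraries 0.669 and 0.832 TPM, so the groups did not overlap. For crybb1l3, at 1.98 and 1.96 TPM on the high-fat diet and 2.04 and 0.494 TPM with CACF, the log2 fold change was -0.48 ± 0.41 (SE; limma adjusted p = 0.722). For crygn1 it was 1.19 ± 1.42 (SE; limma adjusted p = 0.837), and CACF fish 4 alone was high in TPM. In normalized counts it was not, with 64.0 and 87.0 in CACF fish 2 and fish 4 against 44.6 and 105 in high-fat fish 2 and fish 4. Besides crygm4, crygm2b was lower in both CACF libraries than in both high-fat libraries. These were 2 of 47 (4.26%), against 13.4% of all tested genes, and 0 were higher, against 36.2%.

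**Figure D5:**
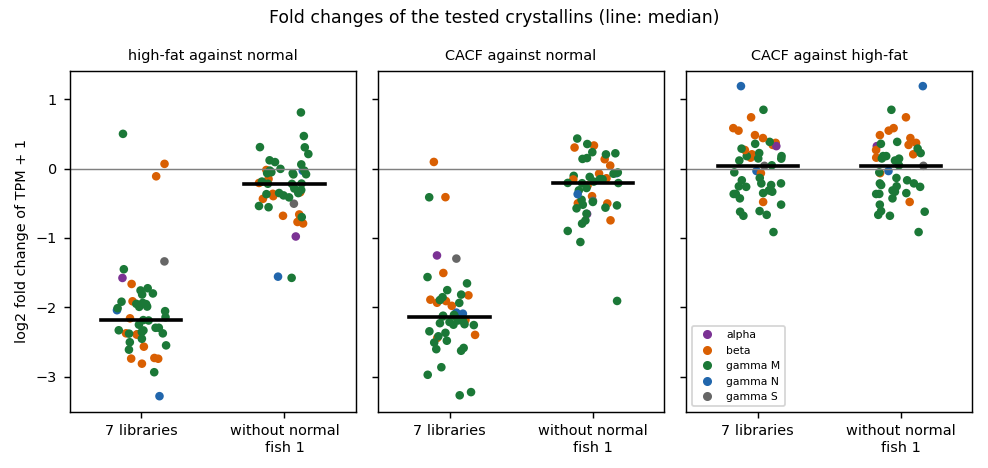
Fitted log2 fold change of each tested crystallin in the 3 comparisons, with all 7 libraries and without normal-diet fish 1. Points are genes coloured by class, the black line is their median and the grey line marks no change. Medians move from -2.18 to -0.22 between the high-fat and the normal diet and from -2.13 to -0.21 between CACF and the normal diet, while that for CACF against the high-fat diet stays at 0.04. The last turns to -0.20 with median-of-ratios scaling, and the high-fat value without normal-diet fish 1 turns to 0.12 by edgeR.

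The authors' deposited tables, which compared the groups with all 3 normal-diet libraries, gave no p-value for 29 of the 57 crystallins (50.9%) in either comparison, against 0.561% of all 29567 genes. For the high-fat diet, 56 of the 57 had a negative log2 fold change in the authors' deposited table, with a median of -4.33, and 0 of the 26 with an adjusted p were under 0.05, against 0.281% of all genes with one. The authors' deposited tables gave an unadjusted p under 0.05 for 11 crystallins on the high-fat diet and for 18 with CACF. These counts leave out the 29 without a p-value, and the share of all genes at that p was not counted. For the high-fat diet, the authors' deposited list of genes at least 4-fold lower held 51 of the 57, against 7.37% of all genes. For CACF, the authors' deposited table gave 55 negative values with a median of -4.76, and cryba1a alone had an adjusted p under 0.05, of 0.0418, with a log2 fold change of -3.24. The share of all genes under that threshold in the authors' deposited table was 1.34%, and 49 crystallins were in the authors' deposited list of genes at least 4-fold lower with CACF, against 6.63% of all genes. Both of the authors' deposited tables share the normal-diet libraries, and normal-diet fish 1 entered both.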

How the data were processed

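RNA of 7 whole-larva libraries was sequenced with a stranded mRNA kit, per the labels' protocols. The submitters' processing notes name FastQC, Trimmomatic, HISAT2 and DESeq2 but no versions. The deposited files are named for build GRCz11. The sources used here do not give the counting program.

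The authors deposited coverage, FPKM and TPM per gene and library, per the file headers. Assembled loci alone summed to 1000000 TPM in the deposited files, and the 32520 reference genes used here added 739551 to 884988. The TPM column was treated as a signal on that scale, without rescaling, and entries of 1 gene were summed. The authors' 2 tables hold log2 fold changes, a Wald score, p-values and normalized counts, per the file headers. Whole reads were recovered from the normalized counts for 100% of values (tolerance 0.001).

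limma 3.58.1 in R 4.3.3 was run on log2(TPM + 1) with all 7 libraries in 1 fit, a variance trend and 4 residual degrees of freedom. This scale understates changes of low genes. Because the deposited counts are normalized, this fit was used in place of a count test. The step was checked on simulated reads with the same spread in every library. No simulated library stood apart, so the check does not cover data with a library like normal-diet fish 1. Alternatives were pseudocounts of 0.1 and 5, filters, scalings, FPKM, robust variances, each library left out, a block for fish number, normalized counts, edgeR 4.0.16 and DESeq2 1.42.0. Where a group of 2 lost 1, the lone library was assumed to vary like the other groups.

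The genes and lists were chosen with earlier results of these data known. Named genes were the alpha crystallins, up to 5 of each other class by mean TPM, the 3 smallest p-values per comparison, the 10 non-members most raised in normal-diet fish 1, and up to 3 of each list, and the text names some of these. Sequences of genes, promoters and proteins were not used here.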

Additional observations from a re-analysis of the deposited data

How the results depend on the processing

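Over 186 alternative values for 9 results of single crystallins (21 settings), 182 kept direction and side of the threshold. The other 4 concern CACF against the high-fat diet: with 1 library left out crybb1l3 ran from -0.99 to 0.032 and crygn1 from -0.0060 to 2.39, each reversing without CACF fish 4, and crygn1 gave -0.0050 by edgeR and -0.013 by edgeR without normal-diet fish 1, a setting added after seeing the data. The cause was not tested. No setting called a crystallin. Against the normal diet, the median for CACF was -4.76 by DESeq2 and -4.78 by edgeR, and that for the high-fat diet -4.33 and -4.17. With 0.1 TPM added in place of 1, limma gave medians of -2.20 for CACF and -2.31 for the high-fat diet. Why the tools differed in size was not tested. With 1 library left out of the limma fit on TPM, medians ran from -3.40 to -0.22 for the high-fat diet and from -3.36 to -0.21 for CACF, each against the normal diet, and from -0.79 to 0.71 for CACF against the high-fat diet. The values of -0.22 and -0.21 were those without normal-diet fish 1. Leaving it out of the fits on counts, a setting added after seeing the data, gave medians of 0.00017 (normalized counts) and 0.12 (edgeR) for the high-fat diet, and -0.32 and -0.38 for CACF.

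In normalized counts, which are not per length, gamma M genes held 61.7%, 53.8% and 67.4% of crystallin signal in normal-diet fish 1, fish 2 and fish 4, 59.1% and 69.0% in high-fat fish 2 and fish 4, and 58.3% and 60.1% in CACF fish 2 and fish 4.

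Genes called over the whole table ranged, by setting, from 0 to 2 between the high-fat and the normal diet, from 1 to 671 for CACF against the normal diet and from 0 to 960 for CACF against the high-fat diet, the highest of the last pair by DESeq2. Fish numbers are shared without a stated pairing. Deviations of libraries with the same number correlated at 0.475, 0.290 and 0.194. With the fish number as a replicate block, 0 crystallins were called in each comparison, the medians were -0.22, -0.21 and 0.04, and 0, 155 and 940 genes were called. Fish 1 occurs on the normal diet alone, so the block fits it exactly. With 2 or 3 libraries per group, changes of this size in single crystallins could not be told from the spread, and gamma S genes were near 0 reads in most libraries.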
